A study of Rattus norvegicus with 8 samples.

Results

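The 10 interferon-stimulated effector genes examined here were *Mx1*, *Mx2*, *Isg15*, *Usp18*, *Ifit2*, *Ifit3*, *Oas1a*, *Bst2*, *Ifitm3* and *Gbp2*. They were taken by name from the 15159 rat genes that could be named on the array, each gene being read from its brightest probe, and all 10 were found. Male F344N rats held in short-day photoperiod (SD) had received 5 μl of all-*trans* retinoic acid (RA) or of vehicle through a cannula in the third ventricle, and blocks of hypothalamus that included the arcuate nuclei were taken 24 hrs later. The labels of the arrays give the RA concentration as 1e-05 M and the vehicle as saline, whereas the methods give 1e-04 M for these rats and DMSO in saline for both solutions. Both groups had been given angiotensin by the same route earlier, and the ages of the rats are not given in the sources used here. RNA of 4 RA rats and 4 vehicle rats carried the dyes Cy3 and Cy5 and was compared on 1 slide of 8 two-colour arrays, with RA in Cy5 on arrays 1, 3, 6 and 8 and RA in Cy3 on arrays 2, 4, 5 and 7. Every value below is a log2 ratio of RA over vehicle on 1 array, so that 0 means equal signal and 1 means a doubling, or a mean of such ratios. The 8 arrays carry the RNA of 4 rats per group, so an SD over 8 arrays mixes repeat arrays with different rats, and the test rests on 4 pair means. A block of tissue mixes many cell types, so that a change in the number of cells of a type and a change in RNA per cell cannot be told apart in any of these ratios.

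Interferons are secreted when cells sense foreign nucleic acid or other danger, and they act on neighbouring cells through receptors, JAK kinases and STAT transcription factors. Type I interferons drive a complex that holds STAT2 and IRF9 to a promoter element called the ISRE and switch on antiviral effectors such as the MX, IFIT, OAS and ISG15 proteins. Interferon gamma acts mainly on an element called GAS and induces the guanylate-binding proteins (GBPs), although many of these genes answer to both kinds of interferon. In the brain, microglia, endothelial cells and infiltrating leukocytes are known to express them strongly.

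Promoters are shown because type I pattern genes are compared with *Gbp2*, and the letters of both elements can be sought in them. The RefSeq promoter table of GRCr8 held 6 of the 10 genes, all but *Mx2*, *Isg15*, *Ifit2* and *Usp18*. The bases before the start site are printed 5′ to 3′ on the strand of the gene, 250 for each, and capitals mark the 2 patterns searched, GAAANNGAAA for an ISRE-like match on either strand and TTCNNNGAA for a GAS-like match, which reads the same on both strands.
Bst2: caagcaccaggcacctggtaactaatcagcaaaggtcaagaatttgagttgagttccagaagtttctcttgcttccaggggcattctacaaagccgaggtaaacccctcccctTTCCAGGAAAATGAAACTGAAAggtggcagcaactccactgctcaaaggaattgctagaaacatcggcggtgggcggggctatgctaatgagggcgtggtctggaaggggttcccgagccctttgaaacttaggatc
Gbp2: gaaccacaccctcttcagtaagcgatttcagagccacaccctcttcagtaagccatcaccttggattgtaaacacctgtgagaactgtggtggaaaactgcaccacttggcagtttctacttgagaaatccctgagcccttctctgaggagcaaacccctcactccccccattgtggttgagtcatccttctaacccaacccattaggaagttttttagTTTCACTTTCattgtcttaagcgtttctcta
Ifit3: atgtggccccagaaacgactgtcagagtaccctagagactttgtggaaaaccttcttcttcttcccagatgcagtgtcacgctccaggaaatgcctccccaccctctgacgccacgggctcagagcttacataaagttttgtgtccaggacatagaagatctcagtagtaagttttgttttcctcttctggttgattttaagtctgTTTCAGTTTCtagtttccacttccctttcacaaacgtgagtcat
Ifitm3: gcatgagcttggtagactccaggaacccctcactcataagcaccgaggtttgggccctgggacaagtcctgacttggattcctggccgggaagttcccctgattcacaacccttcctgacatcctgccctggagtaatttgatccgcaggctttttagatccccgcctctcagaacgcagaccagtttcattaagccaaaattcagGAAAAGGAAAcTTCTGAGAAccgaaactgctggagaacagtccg
Oas1a: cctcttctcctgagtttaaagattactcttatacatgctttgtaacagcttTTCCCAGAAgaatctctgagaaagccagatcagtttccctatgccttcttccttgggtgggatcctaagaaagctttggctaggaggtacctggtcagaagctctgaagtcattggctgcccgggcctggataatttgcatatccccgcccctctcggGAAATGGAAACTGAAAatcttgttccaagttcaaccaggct
Mx1: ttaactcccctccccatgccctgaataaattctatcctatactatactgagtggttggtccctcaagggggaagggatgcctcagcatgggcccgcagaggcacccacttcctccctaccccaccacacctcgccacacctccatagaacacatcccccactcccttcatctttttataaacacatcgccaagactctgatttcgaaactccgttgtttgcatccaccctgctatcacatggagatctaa
These windows lie at chr16:18254968-18255217 (minus strand) for *Bst2*, chr2:234005477-234005726 (plus strand) for *Gbp2* and chr1:241527076-241527325 (plus strand) for *Ifit3*. Those of the others are chr1:205541759-205542008 (minus strand) for *Ifitm3*, chr12:41330216-41330465 (plus strand) for *Oas1a* and chr11:50294607-50294856 (minus strand) for *Mx1*.

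An ISRE-like match was found in 5 of the 6 promoters, against 3.92% of all 33469 promoter windows of 300 bases (250 before and 50 after the start). *Bst2* held a pair of overlapping matches that began 131 and 125 bases before the start, and *Oas1a* a pair that began 41 and 35 bases before it. Single matches began 44 bases before the start in *Ifitm3*, 44 in *Ifit3* and 31 in *Gbp2*, the last pair being on the other strand. A GAS-like match was found in *Bst2*, *Ifitm3* and *Oas1a*, against 8.87% of all windows, and the one in *Bst2* overlapped an ISRE-like match. *Gbp2* and *Ifit3* thus held the ISRE-like letters alone, and the *Mx1* window held neither. A match is a string of letters and no evidence of binding, and its absence from a window of this size says nothing about the factor.

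All 10 genes had a mean log2 ratio above 0, with a median of 0.66 over the genes, whereas the median of all named genes was -0.00461 and 47.6% of them lay above 0. With the unadjusted p under 0.01 that the methods used as threshold, *Bst2*, *Ifitm3* and *Gbp2* were called higher after RA by limma, and no member was called lower. Only the call of *Bst2* held with plain background subtraction or with Agilent's log ratio, where those of *Ifitm3* (unadjusted p in limma 0.0115 and 0.0168) and *Gbp2* (0.0358 and 0.0552) did not. In the fit used here the calls were 3 of the 10 genes, against 4.3% of all named genes called in either direction, 3.52% of them called higher, and 3.25% of all probes called. The same 3 genes were above 0 on all 8 arrays, as were 4.07% of all named genes. At an unadjusted p under 0.05 the count was 8 of 10, all but *Mx2* and *Ifit2*. No probe on the array had an adjusted p under 0.05 in limma (0 of 30367, with 3289 at an unadjusted p under 0.05), and the lowest adjusted p was 0.222. The sources do not say which arrays carry the same RNA, so each p is the largest over the 24 possible pairings of arrays of opposite dye order, and the standard error is that of the same fit. Over single pairings, between 3 and 9 of the genes were called, while the count over all 30367 probes ran from 1080 to 3146. The lowest of both counts, 3 and 1080, came from the pairing of arrays 1 and 2, 3 and 4, 6 and 7, and 8 and 5. When an array of each dye order was left out, the count was 2 to 4 in 11 of 16 fits and 5 or 6 in the other 5, each of which lacked array 6 or array 7.

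**Figure D1:**
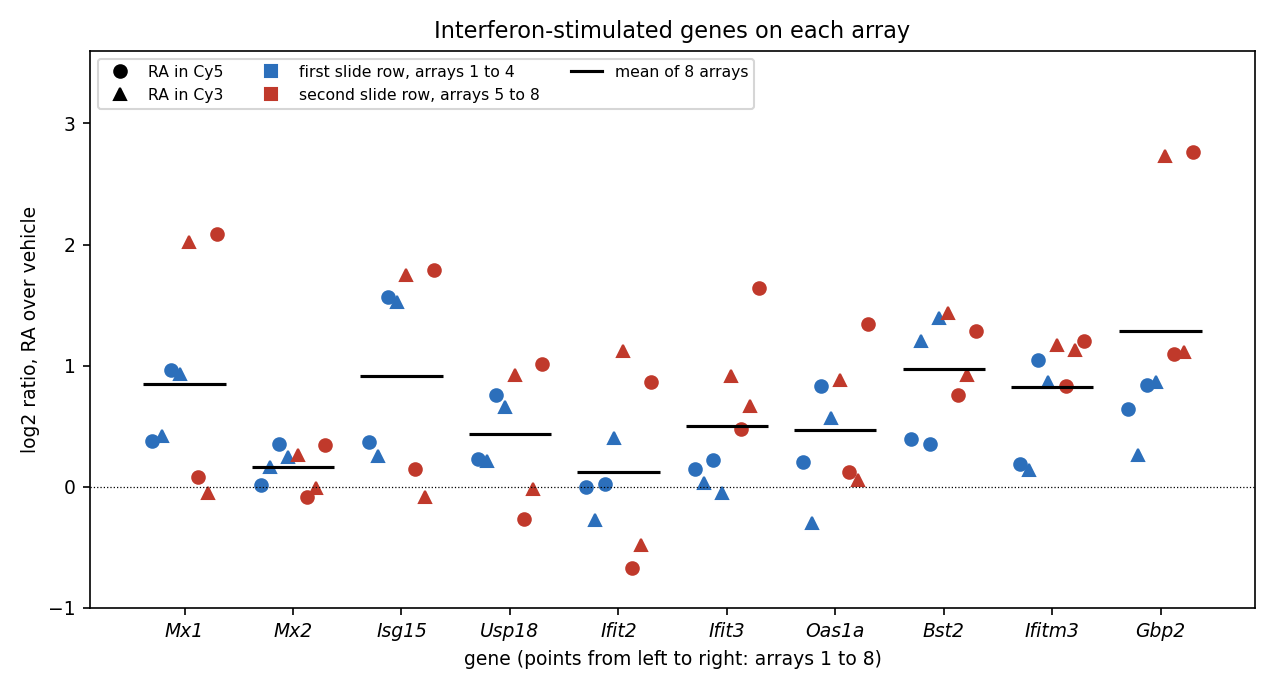
Log2 ratio of RA over vehicle (vertical axis) for each of the 10 genes (horizontal axis) on arrays 1 to 8 from left to right, with circles for RA in Cy5, triangles for RA in Cy3, colours for the slide row and a bar at the mean of 8 arrays. *Gbp2*, *Bst2* and *Ifitm3* have every point above 0, while the points of *Mx1*, *Isg15* and *Ifit2* run from near or under 0 on arrays 6 and 7 to their highest values on arrays 5 and 8.

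*Isg15* (probe A_44_P1013314) encodes a ubiquitin-like protein that is attached to other proteins in interferon-treated cells. Its log2 ratios on arrays 1 to 8 were 0.37, 0.25, 1.57, 1.53, 1.75, 0.14, -0.09 and 1.79. Arrays 3, 4, 5 and 8 stood well above the other 4, which lay between -0.09 and 0.37, and both dye orders were present among the high and the low arrays. The mean was 0.91 ± 0.81 (SD over 8 arrays), a 1.88-fold difference. Its limma unadjusted p was 0.0138, with a standard error of 0.28 and an adjusted p of 0.326, so *Isg15* missed the threshold. It passed in 22 of the 24 pairings. The pairing of arrays 1 and 2, 3 and 4, 5 and 8, and 6 and 7 was not among them. Within each of these couples its ratios lay close together, and pairings that join unlike arrays give pair means of smaller spread. The count of pairings is therefore no measure of support.

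*Usp18* (probe A_64_P157059), the protease that removes ISG15 from proteins and also dampens signalling at the type I receptor, followed with smaller ratios. On arrays 1 to 8 they were 0.23, 0.21, 0.76, 0.66, 0.92, -0.27, -0.02 and 1.01. As for *Isg15*, arrays 6 and 7 were the lowest and arrays 5 and 8 the highest. The mean was 0.44 ± 0.46 (SD over 8 arrays), a 1.35-fold difference. Without arrays 8 and 5 the mean was 0.26. Limma gave *Usp18* a standard error of 0.16, an unadjusted p of 0.0314 and, over all probes, an adjusted p of 0.403. A dimmer probe of *Usp18* had ratios of 0.04, -0.21, 0.42, 0.44, 0.42, -0.10, -0.06 and 0.82 on the same arrays. It was highest on array 8 and lowest on array 2, and its mean of 0.22 was 0.22 below that of the brighter probe (limma unadjusted p = 0.113).

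The MX proteins are dynamin-like GTPases that block the replication of RNA viruses. The ratios of *Mx1* (probe A_64_P042415) on arrays 1 to 8 were 0.38, 0.42, 0.96, 0.93, 2.02, 0.08, -0.05 and 2.08. Arrays 5 and 8 were more than 1 log2 unit above every other array, and arrays 6 and 7 were at about 0. The mean of *Mx1* was 0.85 ± 0.82 (SD over 8 arrays), a 1.81-fold difference, with an unadjusted p of 0.0201, a standard error of 0.29 and an adjusted p of 0.357 in limma. Without arrays 8 and 5 its mean was 0.45, and without arrays 6 and 7 it was 1.13. *Mx2* (probe A_64_P108623) had the narrowest range of the 10 genes, with 0.02, 0.16, 0.35, 0.24, 0.27, -0.09, -0.01 and 0.35. Its mean was 0.16 ± 0.17 (SD over 8 arrays), a 1.12-fold difference with an unadjusted p of 0.0535 and a standard error of 0.07 in limma. The paralogs *Mx1* and *Mx2* are related in sequence, and how far the probes bind the RNA of the other gene is not known here.

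The IFIT proteins bind foreign RNA and stop its translation, and the pair among the 10 genes did not share 1 profile. *Ifit1*, also on the array, was not well above background on any array. *Ifit2* (probe A_44_P696994) gave -0.01, -0.27, 0.02, 0.40, 1.12, -0.67, -0.48 and 0.86 on arrays 1 to 8. Arrays 4, 5 and 8 were above 0, arrays 2, 6 and 7 below it, and arrays 1 and 3 at about 0. The mean of *Ifit2* was 0.12 ± 0.63 (SD over 8 arrays), with an unadjusted p of 0.597 and a standard error of 0.22 in limma, and it fell below 0 in 4 of the 16 fits that each left out an array of either dye order, to -0.17 without arrays 8 and 5. *Ifit3* (probe A_64_P082067) gave 0.14, 0.03, 0.22, -0.05, 0.91, 0.48, 0.67 and 1.64. Here arrays 5 to 8 of the second slide row all lay above arrays 1 to 4 of the first. Row and rat cannot be told apart, as the sources do not say which RNA lay where. The mean of *Ifit3* was 0.51 ± 0.56 (SD over 8 arrays), or 0.09 in the first row and 0.92 in the second, with an unadjusted p of 0.0305, a standard error of 0.19 and an adjusted p of 0.400 in limma. Without arrays 8 and 5 the mean of *Ifit3* was 0.25. It was well above background on 7 of 8 arrays in the RA channel and on 7 of 8 in the vehicle channel, whereas the other 9 genes were so in both channels of all arrays.

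*Oas1a* (probe A_64_P025790) encodes a sensor of double-stranded RNA whose product, short oligoadenylate, activates the ribonuclease RNase L. Its ratios on arrays 1 to 8 were 0.21, -0.30, 0.83, 0.57, 0.88, 0.12, 0.06 and 1.34. Array 2 was the lowest and array 8 the highest, and arrays 6 and 7 again lay close to 0. The mean was 0.46 ± 0.54 (SD over 8 arrays), a 1.38-fold difference, with 0.63 for RA in Cy5 and 0.30 for RA in Cy3. *Oas1a* had an unadjusted p of 0.0343, a standard error of 0.18 and an adjusted p of 0.412 in limma. Rats carry several near-identical *Oas1* genes, so RNA of a neighbouring copy may add to the signal of the probe. Of the other copies on the array, *Oas1k* had a mean ratio of 0.44 (limma unadjusted p = 0.0114) and *Oas1i* one of 0.28 (limma unadjusted p = 0.0488), whereas *Oas1b*, *Oas1d*, *Oas1e*, *Oas1f* and *Oas1h* lay between -0.02 and 0.05. None of these copies was called. *Oas1d* and *Oas1h* were not well above background on any array, and *Oas1e* and *Oas1f* were so on 5 and 4 arrays in each channel. Of the copies near 0, only *Oas1b* was well above background on all 8 arrays. Without arrays 8 and 5 the mean of *Oas1a* was 0.25.

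The membrane proteins were above 0 on every array. *Bst2* (probe A_44_P1029397) encodes tetherin, which holds budding virus particles at the cell surface. Its ratios on arrays 1 to 8 were 0.40, 1.20, 0.35, 1.40, 1.44, 0.76, 0.92 and 1.29. Arrays 1 and 3 were the lowest, and arrays 6 and 7, where *Mx1* and *Isg15* were near 0, were in the middle of the range. The mean of *Bst2* was 0.97 ± 0.43 (SD over 8 arrays), a 1.96-fold difference, and in limma its standard error was 0.11 and its unadjusted p was 2.19e-05, rank 2 among the 15159 named genes, with an adjusted p of 0.222. Its mean differed between the dye orders, at 0.70 ± 0.43 (SD over 4 arrays) for RA in Cy5 and 1.24 ± 0.24 (SD over 4 arrays) for RA in Cy3, and its probe had 1 spot on each array where the other members had 2.

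*Ifitm3* (probe A_44_P484889) encodes a transmembrane protein that hinders the entry of viruses from endosomes. On arrays 1 to 8 it gave 0.19, 0.14, 1.05, 0.87, 1.17, 0.83, 1.13 and 1.20. Arrays 1 and 2 were low and the other 6 lay close together near 1. The mean of *Ifitm3* was 0.82 ± 0.43 (SD over 8 arrays), a 1.77-fold difference, and it was 0.82 for RA in Cy5 and 0.83 for RA in Cy3. Its unadjusted p was 0.000834 in limma, with a standard error of 0.15, rank 84 and an adjusted p of 0.227. The related *Ifitm1* had a mean of 1.33 (limma unadjusted p = 0.000975) and *Ifitm2* one of 0.45 (limma unadjusted p = 0.0026). The 3 IFITM genes resemble each other, and signal shared between their probes was not tested.

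*Gbp2* (probe A_44_P1053321), which encodes a large GTPase that gathers on the membranes around intracellular microbes, had the highest mean of the 10 genes. Its ratios on arrays 1 to 8 were 0.64, 0.26, 0.84, 0.87, 2.73, 1.09, 1.12 and 2.76. All were above 0, arrays 5 and 8 stood far above the rest, and every array of the second slide row lay above every array of the first. The mean of *Gbp2* was 1.29 ± 0.94 (SD over 8 arrays), a 2.44-fold difference, with 1.34 for RA in Cy5 and 1.24 for RA in Cy3. It had an unadjusted p of 0.00535 in limma, a standard error of 0.33, rank 402 and an adjusted p of 0.281, and it passed the threshold in all 24 pairings. By slide row the mean was 0.65 in the first and 1.93 in the second, and the gene was called by limma in either row alone. A row holds only 4 arrays, so these fits rest on fewer pair means than the 4 of the main test. Without arrays 8 and 5 the mean of *Gbp2* was 0.80 and it was still called, whereas without arrays 6 and 7, 6 and 4, or 3 and 7 it was not (largest unadjusted p in limma 0.0159).

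Set against the median of the type I pattern genes (*Mx1*, *Mx2*, *Isg15*, *Ifit2*, *Ifit3* and *Oas1a*), *Gbp2* was the higher on every array. The median ratio of the 6 genes on arrays 1 to 8 was 0.17, 0.10, 0.59, 0.48, 1.02, 0.10, -0.03 and 1.49. *Gbp2* exceeded it by 0.47, 0.16, 0.25, 0.38, 1.72, 0.99, 1.15 and 1.27. The excess was above 0 on 8 of 8 arrays in both dye orders and averaged 0.80 ± 0.56 (SD over 8 arrays), or 0.75 where RA was in Cy5 and 0.85 where it was in Cy3. It was 0.32 in the first slide row and 1.28 in the second, where all 4 arrays had a larger excess than any array of the first. The excess was largest on array 5. On arrays 6 and 7 *Gbp2* was at 1.09 and 1.12 while the median of the type I genes was at 0.10 and -0.03. Whether the 2 rows differ was not tested, and which RNA samples lay in which row is not given in the sources used here.

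**Figure D2:**
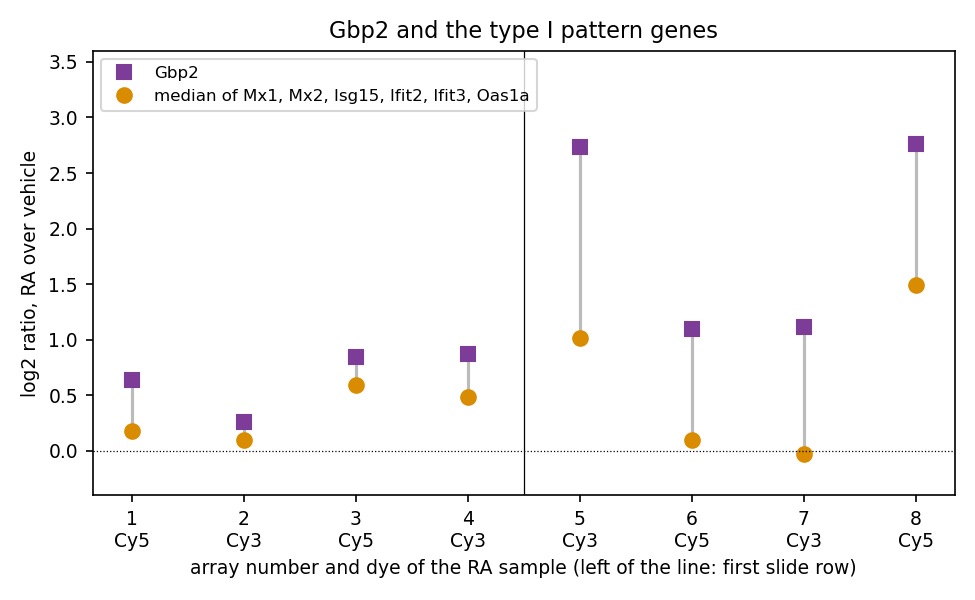
Log2 ratio of RA over vehicle (vertical axis) on arrays 1 to 8 (horizontal axis, with the dye of the RA sample) for *Gbp2* (squares) and for the median of the 6 type I pattern genes (circles), joined by a line that shows the difference. The square lies above the circle on all 8 arrays, by 0.16 on array 2 and by up to 1.72 on array 5.

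Gene by gene, the differences were of unequal size. *Gbp2* exceeded *Ifit2* by 1.17, *Mx2* by 1.13, *Oas1a* by 0.82 and *Ifit3* by 0.78 on average, and it was higher on all 8 arrays in each case. For each of these 4 genes an exact permutation test (two-sided, flipping the signs of the 4 pair means) returned p = 0.13, the smallest value that this number of pairs allows. The mean excess over *Mx1* was 0.44 with a standard error of 0.28, and *Gbp2* was higher on 5 of 8 arrays (exact permutation p = 0.375). Over *Isg15* it was 0.38 with a standard error of 0.41, with *Gbp2* higher on 6 of 8 arrays and *Isg15* higher on arrays 3 and 4 (exact permutation p = 0.5). The p is the largest over the pairings, and 6 such comparisons were made within the type I group. *Gbp2* and *Mx1*, and *Gbp2* and *Isg15*, thus differed by less than the spread between arrays. With plain background subtraction the means of *Ifit3* and *Oas1a* were 0.98 and 0.70 and that of *Gbp2* 1.39, so that these differences were smaller. The mean log2 signal level in vehicle was 6.94 for *Ifit3*, 7.55 for *Oas1a*, 7.64 for *Ifit2* and 13.61 for *Mx2*. For *Gbp2* it was 9.46, close to 9.70 for *Mx1* and 9.43 for *Isg15*. What the signal level contributes to the differences from *Gbp2* was not tested.

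The 8 arrays placed the genes in different orders. All 10 genes were above 0 on arrays 3, 5 and 8, 9 on arrays 1 and 4, 8 on array 2, 7 on array 6 and 5 on array 7. The median of the 10 genes was 0.22, 0.19, 0.80, 0.76, 1.14, 0.13, 0.02 and 1.32 on arrays 1 to 8. Over the 8 arrays the Pearson correlation with the type I median was 0.968 for *Mx1*, 0.934 for *Oas1a*, 0.885 for *Usp18*, 0.851 for *Gbp2*, 0.558 for *Ifitm3* and 0.434 for *Bst2*. With *Gbp2* it was 0.895 for *Ifit3*, 0.83 for *Mx1*, 0.710 for *Ifitm3*, 0.622 for *Isg15* and 0.425 for *Mx2*. These are descriptions over 8 points that share RNA samples, 1 slide and the dye orders, and the type I median contains its own members. Across all named genes, arrays 5 and 8 correlated with each other at 0.695 and arrays 6 and 7 at 0.728, against -0.04 to 0.446 for the other couples of opposite dye order. The choroid plexus gene *Ttr*, chosen after its values were seen, gave 1.76, 1.74, 0.73, 0.57, 1.21, -4.47, -5.11 and 1.37 on arrays 1 to 8. These *Ttr* values lay close together within arrays 1 and 2, 3 and 4, 5 and 8, and 6 and 7, and each couple lies in 1 slide row. The correlation across all named genes was 0.209 for arrays 1 and 2 and 0.212 for arrays 3 and 4. Whether these couples carry the same RNA in both dyes was not tested. Arrays of such a couple may not be independent. Agreement on all 8 arrays, or in both dye orders, may then rest on only 4 couples.

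Interferon genes were mostly at background. Of 11 interferon genes listed, 5 were on the array, and 4 of these were not well above background on any array. *Ifnb1*, the main type I interferon of most cells, and *Ifng*, which encodes interferon gamma, were both among these 4, with mean ratios of 0.01 and 0.00. No interferon gene was called in either direction, and the median of the list was 0.01.

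Some receptors and signalling factors were called as well. Of 7 genes for receptors and JAK kinases, 3 were called higher and none lower, with a median of 0.19. These were *Il10rb*, a receptor chain shared by the interleukin-10 family and type III interferons, at 0.38 (limma unadjusted p = 0.00658), *Ifngr1*, the ligand-binding chain for interferon gamma, at 0.26 (limma unadjusted p = 0.00679), and the kinase *Jak2* at 0.19 (limma unadjusted p = 0.00743). Of 6 STAT and IRF factors, 3 were called higher and all lay above 0, with a median of 0.36. *Stat2* stood at 0.39 and *Irf9* at 0.33, both parts of the complex that binds the ISRE, and *Irf3*, which acts upstream of interferon production, at 0.19 (limma unadjusted p = 0.00926, 0.00345 and 0.00803). *Irf7*, itself a type I target, gave 0.04, -0.15, 0.49, 0.63, 1.26, -0.25, -0.21 and 1.41 on arrays 1 to 8. Its high and low arrays were those of *Mx1* and *Isg15*, and with a mean of 0.40 it was not called (limma unadjusted p = 0.123). *Irf1*, chosen after its values were seen, had the highest mean of the 6 factors at 0.77 and was not called (limma unadjusted p = 0.0211). It lay above 0 on all 8 arrays, at 1.66, 1.07, 0.66 and 2.09 on arrays 5 to 8.

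Beyond the 10 members, 42 further type I effectors were measured, of which 8 were called higher, none lower and 34 lay above 0, with a median of 0.18. Among the 8 called genes, the 5 with the largest means were *Ifitm1* at 1.33, *Oasl2* at 0.74, *Parp14* at 0.72, *Lgals3bp* at 0.52 and *Trim25* at 0.47, each above 0 on all 8 arrays. *Oasl2* is a relative of the OAS enzymes, *Parp14* an ADP-ribosyltransferase, and *Trim25* a ligase that activates the RNA sensor RIG-I. In contrast, *Rsad2*, which encodes the antiviral enzyme viperin and was chosen after its values were seen, gave 0.21, -0.07, 1.15, 0.93, 1.06, -0.13, -0.77 and 1.38. It was low on arrays 6 and 7 like *Isg15*, and its mean was 0.47 (limma unadjusted p = 0.112). Of 13 further GBP and interferon gamma effectors, 3 were called higher, none lower, and all 13 lay above 0, with a median of 0.35. The adhesion molecule *Icam1* had a mean of 0.65, the chemokine *Cxcl11* 0.57 and the GTPase *Irgm* 0.40 (limma unadjusted p = 0.000888, 0.00674 and 0.00878). *Cxcl11* was well above background on 4 arrays in RA and on 1 in vehicle. Among 10 nucleic acid sensors and adaptors, *Myd88*, the adaptor of most Toll-like receptors, was called at 0.61 and the kinase *Ikbke* at 0.47 (limma unadjusted p = 0.0027 and 0.000988). Over these lists of receptors, factors, sensors and effectors, 19 of 78 genes (24.4%) were called, all of them higher, against 4.3% of all named genes.

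**Figure D3:**
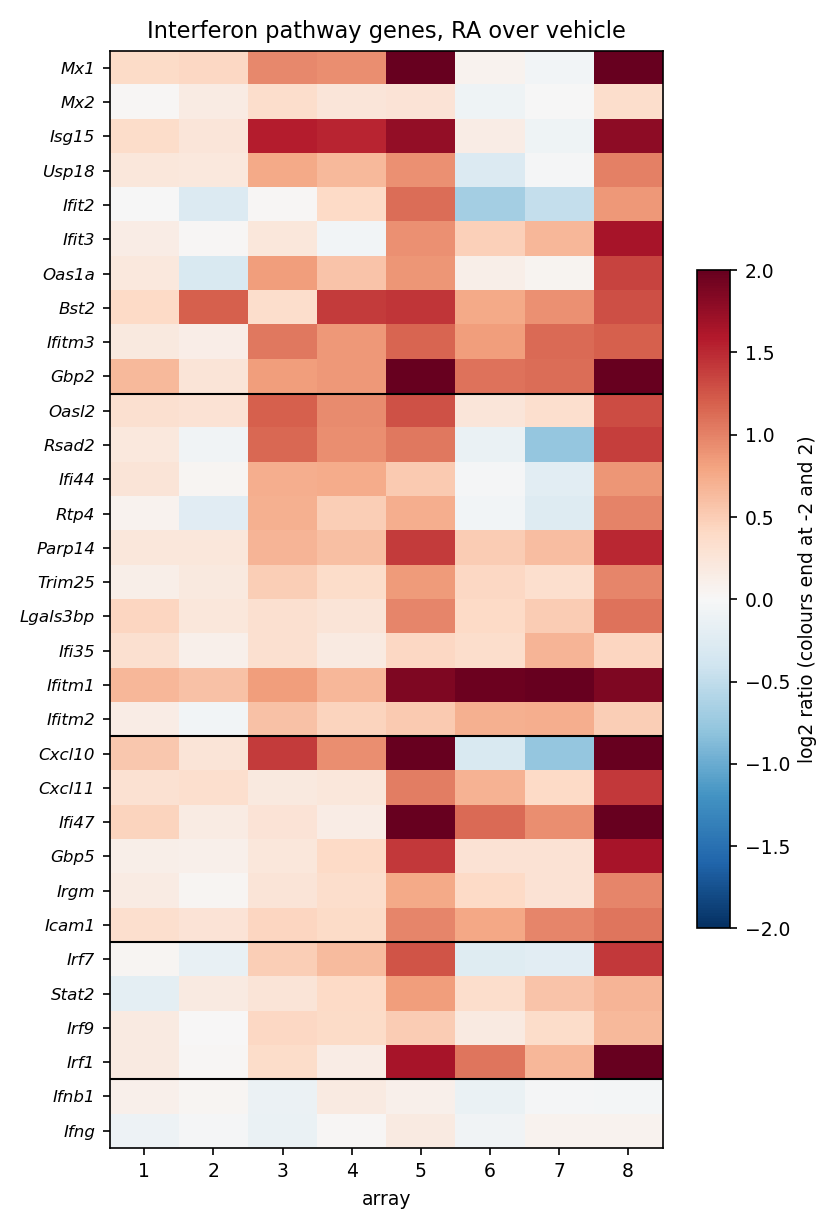
Log2 ratio of RA over vehicle (colour, ending at -2 and 2) for the 10 genes, further type I effectors, GBP and interferon gamma effectors, signalling factors and 2 interferons (rows, in that order from top to bottom) on arrays 1 to 8 (columns). Rows outside the 10 genes include some chosen after their values were seen, such as *Rsad2*. *Mx1*, *Isg15*, *Rsad2*, *Cxcl10* and *Irf7* are pale or blue on arrays 6 and 7, whereas *Gbp2*, *Ifitm1* and *Ifi47* stay red there, and *Ifnb1* and *Ifng* are pale throughout.

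Markers of other cells moved on the same arrays. Of 10 monocyte and neutrophil markers on the array, 5 were called higher (*Plac8*, *Lyz2*, *S100a9*, *Cd14* and *Fcnb*), and the median of the list was 1.10. By array this median ran from 0.22 on array 4 to 2.08 on array 6, with 1.94 on array 7. On arrays 6 and 7 *Mx1*, *Isg15* and *Usp18* were lowest, whereas *Gbp2*, *Ifit3* and *Ifitm3* were well above 0. Single markers did not all follow the median. *S100a9* gave 2.83 and 2.75 on arrays 6 and 7 against 0.71 and 0.86 on arrays 5 and 8. *Plac8* gave 2.64 and 2.58 against 3.11 and 3.25, and *Lyz2* 1.94 and 1.94 against 2.00 and 1.82. The summed linear signal of the list was 10803 to 48875 in RA and 6365 to 12538 in vehicle. The neutrophil enzyme *Elane* was not well above background on any array, and the monocyte receptor *Ccr2* was so on 1 array in RA and 0 in vehicle. Of 12 microglial markers, *Aif1*, *Itgam*, *Ptprc* and *Cd68* were called higher and *Tmem119* lower, with a median of 0.02 and summed signals of 20504 to 36029 in RA and 18611 to 28381 in vehicle. None of 11 T, NK and B cell markers was called, with a median of 0.13, a range of array medians from 0.03 to 0.47 and sums of 1153 to 1947 in RA and 1143 to 1238 in vehicle. In that list 2 genes were not well above background on any array. Its largest means were 0.75 for *Cd8a* and 0.70 for *Cd3g* (limma unadjusted p = 0.0144 and 0.017). These 2 genes lay between 1.08 and 1.62 on arrays 5 to 8. They were well above background on 5 and 6 arrays in RA and on 1 and 2 in vehicle. Of 8 astrocyte markers, the filament gene *Gfap* was called higher at 1.40 and above 0 on all arrays (limma unadjusted p = 0.000177), the gap junction gene *Gja1* was called lower at -0.22 (limma unadjusted p = 0.00703), and the median was -0.09, with summed signals of 142728 to 179774 in RA and 151037 to 191423 in vehicle. None of 10 endothelial markers was called, with a median of -0.02. The part of any of these cells in the ratios of the 10 genes was not tested.

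Markers of neighbouring tissue also moved by array. The median of 11 choroid plexus markers was -1.35 and -1.27 on arrays 6 and 7, whereas the others lay between 0.07 and 0.49. That of 8 leptomeningeal markers was -0.61 on array 5 and -0.76 on array 8, against 0.37 on array 3 and 0.48 on array 4. The labelled tissue itself was present, since 14 of 15 hypothalamic neuropeptide and neurotransmitter genes were well above background in both channels of all arrays. Their median ratio was -0.58 on array 5 and -0.35 on array 8, where *Gbp2* and *Mx1* were highest. What these shifts contribute to the values of the 10 genes was not tested.

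**Figure D4:**
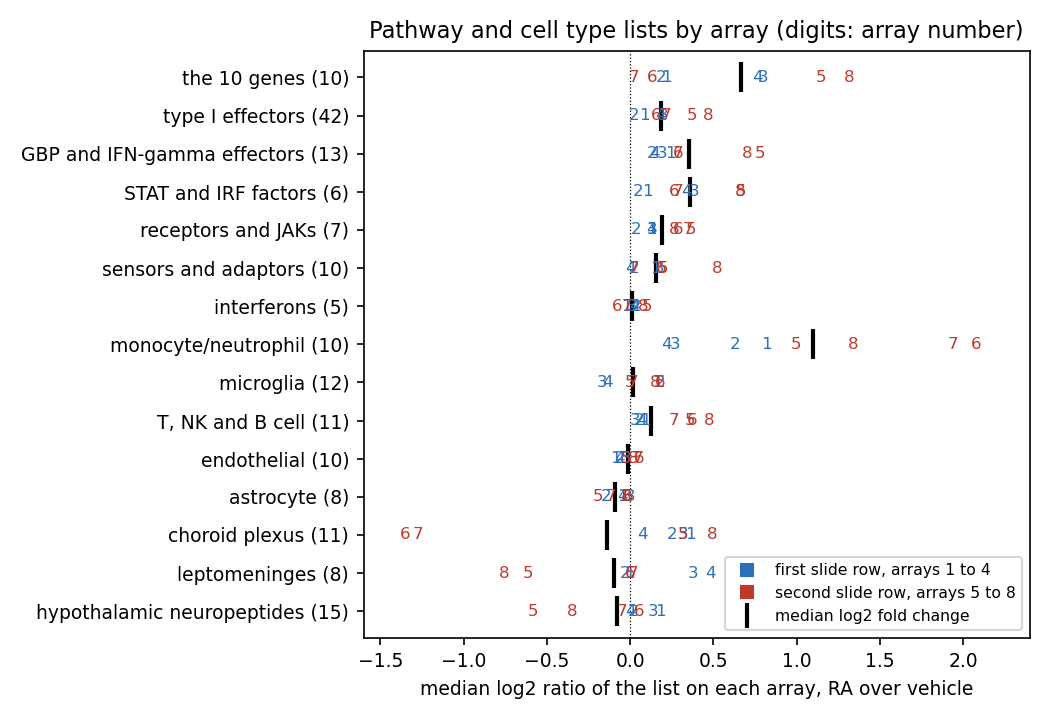
Median log2 ratio of RA over vehicle (horizontal axis) for the 10 genes and for each pathway or cell type list (rows, with the number of genes), where a digit stands for the array, its colour for the slide row and a bar for the median log2 fold change of the list. Arrays 5 and 8 lead in the rows of interferon-stimulated genes, arrays 6 and 7 lead in the monocyte and neutrophil row and lie lowest in the choroid plexus row, and the interferon row stays between -0.08 and 0.10.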

How the data were processed

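Hypothalamic RNA of RA and vehicle rats was measured on 8 two-colour Agilent arrays. The authors deposited the scanner output with a Cy3 and a Cy5 intensity per spot on a linear scale, and with a log10 ratio of Cy5 to Cy3 that the image software had computed. Normalised log2 ratios for the whole series were deposited too, made with limma by loess and averaging of replicate spots, per the methods. These tables were used as alternatives.

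Median intensities were corrected with limma's normexp (offset 50) in R 4.3.3 with limma 3.58.1. Outlier spots (0.913% to 2.42% per array) were dropped, loess was applied within arrays, spots of a probe were averaged, and ratios were turned to RA over vehicle by the dyes in the labels. Of 62976 spots per array, 58717 were not controls and formed 30367 probes. Well above background means that Agilent's mark was set on at least 0.5 of a probe's spots, which held for 57.4% to 74.6% of probes in RA and 61.2% to 74.5% in vehicle. No spot of the 10 genes was saturated. Precision is limited by the number of rats, 4 per group.

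Transcript accessions were matched to RefSeq genes of GRCr8, which named 18006 probes (59.3%) of 15159 genes. Where a gene had more than 1 probe (2607 genes), the brightest was used. Each probe was tested in limma on 4 means, each of 2 arrays of opposite dye order. As the sources do not pair the arrays, each of 24 possible pairings was fitted and the highest p taken, with Benjamini-Hochberg adjustment over all probes. The sources do not say which rats lie behind which array, so p-values measure the spread between these arrays. The test was checked on simulated arrays.

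The 10 genes and the gene lists were chosen with earlier results of these data known. Named are all 10 genes and their other probes, up to 5 called genes per pathway list and direction, *Irf7*, *Irf9*, *Ifnb1* and *Ifng*, and the 5 genes most like *Gbp2* and the type I median. 1 gene of the lists is not reported here. Other genes were chosen after their values were seen. Alternatives covered background correction, the deposited log ratios, scaling, outlier spots, dim probes, variance trend, model, pairing, dye order, slide row, probe choice and leaving arrays out.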

Additional observations from a re-analysis of the deposited data

How the results depend on the processing

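Against 3 called members and 987 called probes, plain background subtraction gave 1 and 236, Agilent's log ratio 1 and 330, a random block 5 and 1688, 8 independent arrays with a dye term 7 and 2477, and the pairing with the most calls 8 and 3146. A single slide row, with only 4 arrays and fewer pair means, gave 6 members and 798 probes for the first row and 4 and 1438 for the second. Probe counts were 2165 with only RA in Cy5, 2316 with only RA in Cy3 and 1595 with slide row as a block. Leaving out each of 16 couples of arrays gave 2 to 6 members and 455 to 1110 probes. The excess of *Gbp2* over the type I genes, taken here between its mean and the median of their means, was 0.80, ran from 0.39 to 1.18 over 17 alternatives and from 0.56 to 0.95 over the couples, and stayed above 0. It was 0.59 with plain subtraction and 0.56 with Agilent's log ratio. It was not computed for bright probes alone, a filter that drops *Ifit3*. *Ifit2* was -0.02 without arrays 1 and 5, -0.03 without 3 and 5, -0.05 without 8 and 4, and -0.17 without 8 and 5, and reached 0.35 without 6 and 7. No other member changed sign in any of these fits. *Bst2* was called in 18 of 18 alternatives and for all 16 couples, *Ifitm3* in 16 of 18 and all 16, and *Gbp2* in 16 of 18 and 13 of 16, missing with plain subtraction and Agilent's log ratio. *Ifit3* went from 0.51 to 0.98 and *Oas1a* from 0.46 to 0.70 with plain subtraction.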

Other observations

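Among 9462 genes well above background in both channels of all arrays, the 5 whose ratios followed *Gbp2* most closely over the 8 arrays (Pearson correlation) were *Nampt* at 0.989, *Alas1* at 0.975, *Phf11* at 0.975, *Gbp5* at 0.974 and *Irgm* at 0.973. Their mean log2 ratios were 0.19, 0.00, 0.39, 0.56 and 0.40, so that a gene with a mean of about 0 could share the order of the arrays. The 5 closest to the type I median were *Cxcl10* at 0.982, *Cplx1* at 0.972, *Irf7* and *Mx1* at 0.968 each, and *Mab21l2* at 0.966. *Mx1* is itself a member of that median, so its place is partly built in. The mean ratio was 1.03 for the chemokine gene *Cxcl10*, -0.12 for *Cplx1* and -0.06 for *Mab21l2*.

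*Cxcl10* gave 0.54, 0.26, 1.40, 0.92, 2.64, -0.30, -0.77 and 3.57 on arrays 1 to 8, a wider range than any of the 10 genes, with an unadjusted p of 0.075 in limma. It was highest on arrays 5 and 8 and below 0 on arrays 6 and 7. *Ifi47*, a GTPase induced by interferon gamma and chosen after its values were seen, gave 0.44, 0.16, 0.27, 0.15, 2.01, 1.14, 0.93 and 2.26, with an unadjusted p of 0.0158 in limma. Like *Gbp2*, it lay above 0 on all arrays and was higher on every array of the second slide row than on any of the first.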
